A study of Mus musculus with 2 samples.

Results

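Histone genes were followed in mouse cells on day 16 of reprogramming towards iPSCs (induced pluripotent stem cells). The members were chosen by gene symbol alone, as genes whose symbol begins with Hist1h, Hist2h, Hist3h or Hist4h (cluster histones) or with H1f, H2af or H3f (variant histones). The rule gave 76 of the 17408 genes in the table, of which 65 were cluster and 11 were variant members. One variant member, H3f3aos, is an antisense RNA at H3f3a and encodes no histone. The starting cells were mouse embryonic fibroblasts carrying STEMCCA, a cassette of 4 reprogramming factors, and reprogramming was induced with doxycycline in embryonic stem cell medium with serum, leukaemia inhibitory factor and ascorbic acid (50 µg/ml). The 2 libraries were both unsorted day 16 cells and formed 1 group, so there was no untreated library, and cell states were compared within libraries. The study's text describes its day 16 cells as coming from 2 separate STEMCCA mouse systems, but no label ties a library to a system, so library and mouse system cannot be told apart. Every p-value below measures only the spread between these 2 libraries.

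Histones package DNA into nucleosomes, each a core of histones H2A, H2B, H3 and H4, with the linker histone H1 bound where DNA enters and leaves. The cluster genes supply the bulk of new histone while DNA is copied in S phase, and their mature mRNAs end in a short stem-loop in place of a poly(A) tail. Variant genes stand mostly alone in the genome, are polyadenylated and are transcribed throughout the cell cycle. Pluripotent cells are known for a short first gap phase, so that most of them are copying DNA or preparing to divide.

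Libraries were primed on poly(A), so the 3′ ends of the genes bear on what could be captured. Of the 65 cluster members, 51 lay on chromosome 13 and 10 on chromosome 3, and 64 had a unique place in the annotation (GRCm38, GENCODE). A 16-base hairpin of the histone type was found within 100 bases after the annotated stop codon in 45 cluster members, at 21 to 58 bases from it. Among 20129 other protein-coding genes with that many bases, 9 (0.0447%) held one. The 45 cluster members and H2afx, the one variant member with the hairpin, shared 9 forms of it, and a single form was found in 26 genes. The stem-loops of the members described below are shown with 5 bases before and up to 5 after, read 5′ to 3′ on the strand of the gene, with the hairpin in capitals, since they are the feature that sets these mRNAs apart at their 3′ ends.
Hist1h1c: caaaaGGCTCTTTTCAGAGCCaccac
Hist1h1e: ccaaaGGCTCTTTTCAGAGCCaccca
Hist1h2ap: aaaaaGGCTCTTTTCAGAGCCatc
Hist3h2a: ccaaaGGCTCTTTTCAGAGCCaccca
Hist1h4d: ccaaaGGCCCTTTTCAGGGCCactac
Hist1h4i: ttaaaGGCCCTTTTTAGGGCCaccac
H2afx: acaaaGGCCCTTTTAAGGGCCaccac
Hist1h1c, Hist1h1e, Hist1h2ap and Hist3h2a held the commonest form, and the others differed from it in the stem or the loop. For the 20 cluster members with no hairpin found, 16 had gene models that ended at most 50 bases after the stop codon, so the stretch where it could lie was not annotated. Hist2h2bb.1 had no unique place, so neither a hairpin nor a poly(A) signal could be searched for. Hist1h2al had no annotated stop codon and was not searched for a hairpin.

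Many annotated cluster genes ran on past the hairpin. In 18 of the 45 the model ended more than 200 bases beyond it, and 4 of these 18 were abundant enough to test (Hist1h1c, Hist1h1e, Hist1h4i and Hist3h2a), against 1 of the 27 with a shorter end (Hist1h2ap). The median level was 0.00691 UMIs per 10000 UMIs over the 18 and 0.00427 over the 27. Of the 20 cluster members with no hairpin found, 3 were tested (Hist1h2bc, Hist1h1b and Hist1h2ak). Their group had a median of 0.00251 and held the most abundant cluster member, Hist1h2bc, at 0.690. The model of Hist1h2bc ran 742 bases past its stop codon, while those of Hist1h1b and Hist1h2ak held 0 bases there. A long annotated end was thus seen in Hist1h2bc too, and was missing in Hist1h1b, Hist1h2ak and Hist1h2ap. For Hist1h1b and Hist1h2ak the stretch past the stop codon was not annotated, so its length is not known. A poly(A) signal, AATAAA or ATTAAA, stood in the last 60 annotated bases of 14 of the 65 cluster members and of 10 of the 11 variant members, against 79.9% of other protein-coding genes. H2afx held both, with the hairpin 822 bases before its annotated end. The H2afx model therefore held both a histone-type end and an ordinary polyadenylated one.

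**Figure D1:**
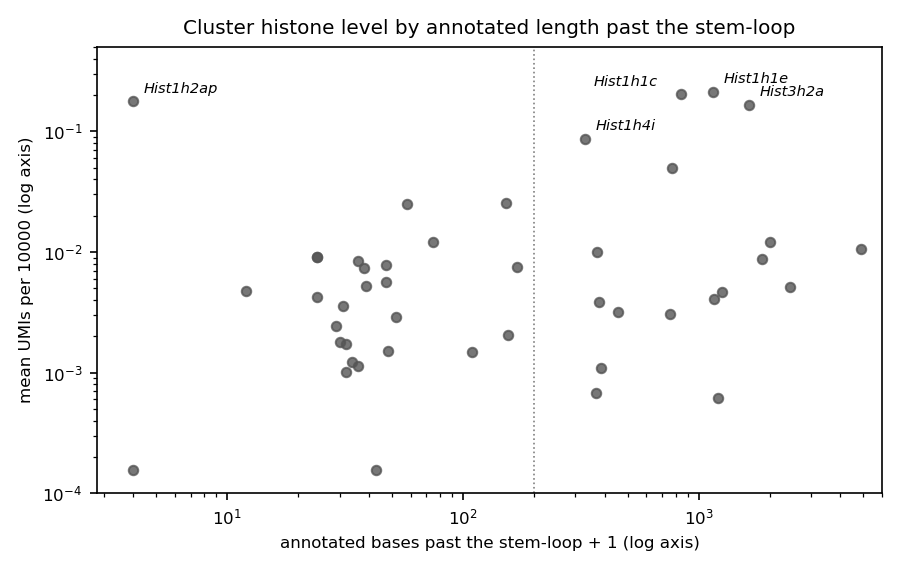
Mean level of each of the 45 cluster histone genes with a stem-loop (y axis, UMIs per 10000 UMIs, log scale) against the number of annotated bases beyond the stem-loop plus 1 (x axis, log scale), 1 point per gene, with the 5 genes abundant enough to test named. The dotted line stands at 200 bases, and 4 of the 5 named genes lie to its right.

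The start sites of the cluster genes also shared letters. In the RefSeq promoter windows (GRCm38.p6), CCAAT on either strand was found in 49 of 58 windows of cluster members (84.5%), in 6 of 9 of variant members and in 37.3% of 32784 windows of other genes. TATAAA on either strand was found in 34 of the 58 (58.6%), in 1 of the 9 and in 13.5% of the other windows. These are matches of letters in windows of one length, and binding was not measured.

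The summed level of the variant members was far above that of the cluster members in these libraries, where poly(A) priming may miss cluster mRNAs. Levels are given throughout as the mean over cells of UMIs per 10000 UMIs of the cell, where a UMI (unique molecular identifier) marks 1 captured RNA molecule by its 3′ end, so they are not scaled by gene length. Variant members summed to 44.3 and 42.8 UMIs per 10000 in replicates 1 and 2, and cluster members to 2.57 and 1.85. H2afz, a replacement H2A found at promoters, was the most abundant member at 16.6 and 17.2, followed by H3f3b (9.26 and 8.41) and H3f3a (9.01 and 8.25), which both encode the replacement histone H3.3. Among cluster members Hist1h2bc, an H2B gene, was the most abundant at 0.874 and 0.505. The filter, a mean of at least 0.1 over the profiles compared, was passed by 18 members, namely 8 cluster and 10 variant genes. The other 57 cluster members had 2 to 681 UMIs over both libraries (median 45), and H3f3aos had 21.

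Some of these counts may be split between copies or between overlapping genes. The annotated spans of Hist1h1e and Hist1h2be overlap on the same strand. More than 50% of the 90-base windows at the 3′ end were shared with another gene in 27 cluster members, among them Hist1h2ap (92.4%) and Hist1h1e (99.0%, shared with Hist1h2be and Gm11398), so the levels of these genes are uncertain. Hist1h2bc, Hist1h1b and Hist1h1c had no shared window. H3f3a shared 22.4% of its windows with H3f3c, its annotated pseudogenes and predicted genes, and H2afz 28.4% with the predicted genes Gm13007 and Gm8203.

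The libraries held 3109 and 3914 cells with 54145377 and 64654306 UMIs, and single cells had 4753 to 60990. Cells of both libraries were clustered together with the histone genes left out, and 1 cluster was pluripotent-like, with all 12 of the markers listed for it raised (Dppa5a and Utf1 among its leading genes). It held 148 of 3109 cells in replicate 1 (4.76%) and 393 of 3914 in replicate 2 (10.0%). Its cells were deeper than the rest, with median UMIs of 28768 and 26097 against 15213 and 13651 in the other cells, and its summed cell cycle lists were higher, at 25.5 and 24.5 against 9.73 and 8.92 UMIs per 10000 for 39 S-phase genes and 55.1 and 52.8 against 25.9 and 23.1 for 51 G2/M genes. The libraries shared 12 cell barcodes.

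The first comparison set pluripotent-like cells against all other cells. Both kinds of histone gene summed higher in pluripotent-like cells, the variant members at 58.1 and 51.7 against 43.6 and 41.8 UMIs per 10000, and the cluster members at 3.01 and 2.09 against 2.55 and 1.82. In the limma fit across 7010 genes, 8 of the 18 tested members were higher and 7 lower at an adjusted p of 0.05. Over all genes 38.1% were higher and 39.5% lower, 77.6% in all, so the share of members called was close to the background, and the median log2 difference was 0.02 over the members and -0.01 over all genes. Compared as UMIs per cell with no scaling to depth, the median of all genes moved to 0.55, and 75.6% of the calls over all genes were higher (49.1% with scaling). On that scale 17 of the 24 members tested were higher and 3 lower, against 61.9% and 20% of all genes. The members differed in direction by gene, and the plot of levels by class shows both libraries for each.

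**Figure D2:**
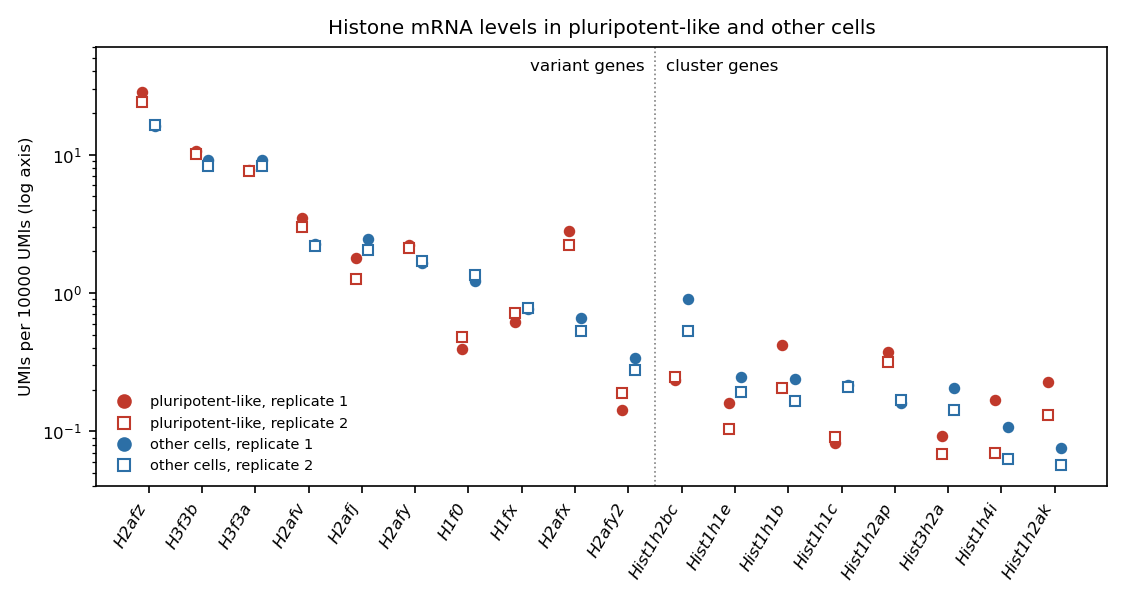
Level of each of the 18 tested histone genes (y axis, UMIs per 10000 UMIs, log scale) in pluripotent-like cells (red) and other cells (blue), with replicate 1 filled and replicate 2 open; variant genes stand left of the dotted line and cluster genes right of it, each ordered by mean level. H2afx stands above the other cells in both libraries, and H1f0 and Hist1h2bc stand below.

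Of the 10 variant members, 5 were called higher in pluripotent-like cells, 3 were called lower and 2 were not called. H2afx, whose protein is phosphorylated around DNA breaks, was at 2.82 and 2.22 UMIs per 10000 in pluripotent-like cells of replicates 1 and 2 and at 0.658 and 0.527 in other cells, a log2 difference of 1.92 ± 0.09 (SE; limma adjusted p = 9.14e-09). H2afz was at 28.4 and 24.1 against 16.0 and 16.4, a difference of 0.69 ± 0.10 (limma adjusted p = 6.95e-05). These groups did not overlap for either gene, and the share of all genes that did the same is not given here. H2afv, a near copy of H2afz, was at 3.46 and 3.02 against 2.25 and 2.20 (log2 difference 0.52). MacroH2A1, encoded by H2afy, was at 2.24 and 2.12 against 1.65 and 1.71 (0.35). H3f3b was at 10.6 and 10.1 against 9.19 and 8.22 (0.25, limma adjusted p = 0.0280), a call that was lost without the library term. The other H3.3 gene, H3f3a, was at 7.68 and 7.57 against 9.08 and 8.32 (-0.19, limma adjusted p = 0.0855) and was not called. H1fx, the linker histone H1.10, was at 0.620 and 0.716 against 0.761 and 0.775 (-0.18, limma adjusted p = 0.102) and was not called either.

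The variant members that were lower were a linker histone and an H2A pair. H1f0, the linker histone H1.0 known from cells that have stopped dividing or have differentiated, was at 0.391 and 0.479 UMIs per 10000 in pluripotent-like cells and at 1.21 and 1.35 in other cells, a log2 difference of -1.37 ± 0.09 (SE; limma adjusted p = 1.27e-07). H2afy2, which encodes macroH2A2, was at 0.143 and 0.189 against 0.338 and 0.279 (log2 difference -0.62, with -0.85 in replicate 1 and -0.39 in replicate 2). H2afj was at 1.79 and 1.25 against 2.45 and 2.04 (-0.55). In UMIs per cell with no scaling to depth the difference of H2afj was 0.21, where the median of all genes was 0.55. On the scaled levels each of these genes was lower in pluripotent-like cells of both libraries.

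Among the 8 cluster members tested, 3 were higher, 4 were lower and 1 was not called. Hist1h2ap, an H2A gene, was at 0.373 and 0.319 UMIs per 10000 in pluripotent-like cells and at 0.159 and 0.170 in other cells (log2 difference 0.75), and Hist1h2ak, another H2A gene, at 0.229 and 0.131 against 0.0762 and 0.0574 (0.73). Hist1h1b, the linker histone H1.5, was at 0.421 and 0.207 against 0.237 and 0.166, a difference of 0.42 ± 0.11 (SE; limma adjusted p = 0.00515), which was 0.63 in replicate 1 and 0.21 in replicate 2 and lost its call without the library term. Hist1h2bc was at 0.237 and 0.248 against 0.906 and 0.534, a difference of -1.22 ± 0.14 (limma adjusted p = 1.19e-05). Hist1h1c, the linker histone H1.2, was at 0.0823 and 0.0904 against 0.217 and 0.210 (-0.75), Hist3h2a at 0.0930 and 0.0687 against 0.204 and 0.142 (-0.59), and Hist1h1e, the linker histone H1.4, at 0.160 and 0.105 against 0.247 and 0.192 (-0.46). The H4 gene Hist1h4i was at 0.168 and 0.0696 against 0.108 and 0.0626 (0.21, limma adjusted p = 0.0772). Hist1h2ak and Hist1h4i averaged under 0.1 in other cells and passed the filter only through the pluripotent-like profiles, so the counts over the members tested lean towards such genes. Fitted with no filter, Hist1h2ak was still called (limma adjusted p = 0.0295). Cluster members therefore moved in both directions between the same groups of cells.

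The makeup of the captured linker histone RNA differed between the classes. All linker histone genes together were at 1.78 and 1.67 UMIs per 10000 in pluripotent-like cells and at 2.69 and 2.71 in other cells. H1f0 made up 165 of 758 linker UMIs (21.8%, exact 95% interval 18.9 to 24.9%) and 491 of 1771 (27.7%, 25.6 to 29.9%) in pluripotent-like cells of replicates 1 and 2, and 41.7% and 46.6% in other cells. Hist1h1b made up 24.7% and 13.1% of them in pluripotent-like cells and 10.2% and 7.55% in other cells. Within the H2A genes, H2afx made up 7.20% and 6.72% of the UMIs in pluripotent-like cells and 2.94% and 2.41% in other cells, while H2afz made up 70.8% and 71.8% against 68.4% and 70.6%. The intervals cover counting error only. These are shares of RNA captured by poly(A) priming, which may miss cluster mRNAs that end in the stem-loop. They are therefore not shares of all linker or H2A RNA in the cells.

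The second comparison asked how the same genes moved with the cell cycle among the other cells. Cells were called S, G2/M or neither from gene lists that held no histone gene, after each cell was thinned to 4500 UMIs so that depth did not set the call. Among other cells 21.6% and 23.1% were called S, 17.3% and 15.1% G2/M and 61.1% and 61.8% neither in replicates 1 and 2. With all UMIs the shares were 18.8% and 19.9% for S and 16.8% and 14.6% for G2/M. In pluripotent-like cells 50.7% and 53.2% were called S and 48.6% and 44.8% G2/M, and only 1 and 8 cells neither, too few for a profile.

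Against cells called neither, 11 of 18 members were higher and 1 was lower in S calls (limma across 7047 genes, where 14.6% of all genes were higher and 10.4% lower), with a median log2 difference of 0.58 over the members and 0.00 over all genes. In G2/M calls 13 members were higher and 2 lower, against 23.9% and 17.4% of all genes, with medians of 0.99 and 0.03. Hist1h1b rose from 0.0215 and 0.0120 UMIs per 10000 in cells called neither to 0.415 and 0.299 in S and 0.776 and 0.595 in G2/M, log2 differences of 1.96 ± 0.15 (limma adjusted p = 3.35e-05) and 2.74 ± 0.15 (limma adjusted p = 1.46e-06). Hist1h2ap was at 0.0162 and 0.0162, then 0.288 and 0.311, then 0.501 and 0.584 in the same order (1.78 and 2.46). Hist1h1e was at 0.0617 and 0.0753, then 0.395 and 0.263, then 0.715 and 0.559 (1.33 and 2.12). With each cell thinned to 4500 UMIs, 1.16% and 0.367% of the cells called neither held a Hist1h1b UMI, against 15.6% and 9.71% in S and 25.0% and 18.1% in G2/M (3.26% and 1.61%, 34.5% and 25.7%, and 50.6% and 47.4% with all UMIs). No cell type here was known to lack the gene, and the cells called neither stand as its background. In each of these 3 genes the 3 kinds of call did not overlap between libraries. The share of all genes that did the same is not given here. Of the 18 members, 5 (these 3, Hist1h2ak and Hist1h4i) averaged under 0.1 in cells called neither and passed the filter only through states where they were higher. With no filter all 5 were still called in S, with limma adjusted p from 0.000850 to 0.0359.

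Of the 10 variant members, 6 rose in S and 8 in G2/M, where 14.6% and 23.9% of all genes did. The difference was larger in G2/M than in S for those named here. The phase calls barely separated S-phase content. Among other cells the summed S-phase list was at 20.97 and 18.92 UMIs per 10000 in S calls and at 18.61 and 17.21 in G2/M calls. In cells called neither it was at 3.24 and 3.16. A larger difference in G2/M calls therefore does not place the peak of these genes, or of Hist1h1b, Hist1h2ap and Hist1h1e, after S phase. H2afz was at 7.82 and 8.86 UMIs per 10000 in cells called neither, 20.8 and 21.1 in S and 38.8 and 40.1 in G2/M (log2 differences 1.32 and 2.23). H2afx was at 0.240 and 0.203, then 0.764 and 0.574, then 2.00 and 1.79 (1.25 and 2.63). H1fx was at 0.341 and 0.398, then 0.843 and 0.816, then 2.14 and 2.26 (0.99 and 2.29). Set directly against S, G2/M calls among other cells had 9 members higher by limma, against 5.8% of all genes, H2afx by 1.38 (limma adjusted p = 1.66e-05) and H1fx by 1.31 (limma adjusted p = 6.17e-05) on the log2 scale. None was lower by limma (2.0% of all genes), and 1, H2afj, had an unadjusted p under 0.05 in that direction.

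A smaller group did not rise in S. Hist3h2a fell from 0.263 and 0.175 UMIs per 10000 in cells called neither to 0.113 and 0.0961 in S and 0.111 and 0.0726 in G2/M (log2 differences -0.63 and -0.73). H2afj was at 2.58 and 2.15, then 2.47 and 2.05, then 1.99 and 1.57, and its fall passed in G2/M (-0.39, limma adjusted p = 0.00820), a call that was lost without the library term. Hist1h2bc was at 1.06 and 0.645, then 0.750 and 0.341, then 0.557 and 0.371, which did not pass in S (-0.60, limma adjusted p = 0.158) or in G2/M (-0.74, limma adjusted p = 0.0667), with replicate 1 above replicate 2 in every state. H1f0 was at 1.07 and 1.27, 1.00 and 1.16, and 2.00 and 1.98, so that its difference passed in G2/M (0.73, limma adjusted p = 0.00163) and missed in S (-0.10, limma adjusted p = 0.624). H3f3a, H3f3b and Hist1h1c were not called in S either (0.11, 0.13 and -0.29). In G2/M H3f3b was called higher (0.75), while H3f3a (0.17) and Hist1h1c (0.03) were not called.

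**Figure D3:**
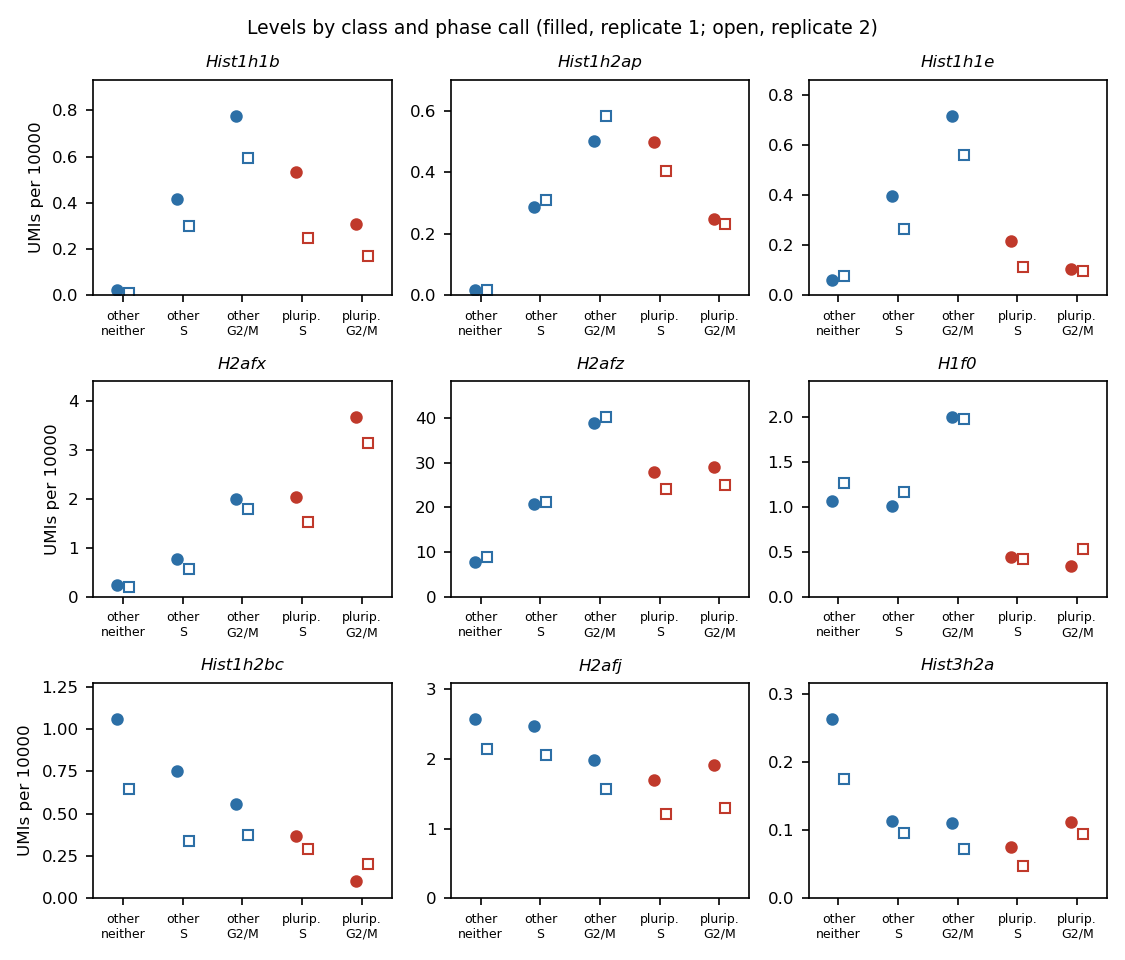
Levels of 9 histone genes (y axes, UMIs per 10000 UMIs, each from 0) in other cells called neither, S and G2/M (blue) and in pluripotent-like cells called S and G2/M (red), with replicate 1 filled and replicate 2 open. Hist1h1b, Hist1h2ap and Hist1h1e step up from neither to G2/M in other cells and are lower in G2/M than in S in pluripotent-like cells of both libraries, while H1f0 stays under 0.54 in every pluripotent-like state.

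In pluripotent-like cells the step from S to G2/M was lower for several members. Within these cells 1 member, H2afx, was higher in G2/M calls (2.04 and 1.52 UMIs per 10000 in S, 3.66 and 3.13 in G2/M, log2 difference 0.90, limma adjusted p = 0.00167) and 1, Hist1h2ap, was lower (0.497 and 0.406, then 0.250 and 0.230, -0.69, limma adjusted p = 0.0121), a call lost with no filter (limma adjusted p = 0.0752). Over all genes 1.18% were higher and 0.312% lower. The difference between the classes in the step from S to G2/M was itself tested, and 8 members had a lower step in pluripotent-like cells, against 2.3% of all genes (H2afz, H2afv, H3f3b, H1fx, H1f0, Hist1h1b, Hist1h1e and Hist1h2ap). None had a higher step by limma, against 0.497% of all genes, and 2 (H2afj and Hist3h2a) had an unadjusted p under 0.05 in that direction. That difference was largest in size for Hist1h2ap, at -1.38 ± 0.15 (limma adjusted p = 0.00281), and for Hist1h1b, at -1.28 ± 0.22 (limma adjusted p = 0.0184). For H1f0 the difference was -0.82 (limma adjusted p = 0.0497), with -1.19 in replicate 1 and -0.44 in replicate 2. The count of 8 fell to between 3 and 5 with several other settings, of which leaving out the cells near the limit of the phase calls gave 3. The shares of all genes under those settings are not given here, so a lower count may only reflect fewer calls over all genes. The G2/M list itself was lower in pluripotent-like than in other G2/M calls (66.2 and 71.5 against 86.9 and 85.1 UMIs per 10000). In S calls it was higher (45.0 and 38.4 against 25.9 and 23.1). The S-phase list went from 29.78 and 27.58 in S calls to 21.34 and 21.48 in G2/M calls of pluripotent-like cells. In other cells it went from 20.97 and 18.92 to 18.61 and 17.21, a smaller fall. The part of either list in the lower step of the histone genes was not tested.

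Within one phase call the classes stood apart differently from the first comparison. Among S calls, pluripotent-like cells had 6 members higher, against 35.0% of all genes, and 8 lower, against 39.0%. Among G2/M calls they had 1 higher and 14 lower (29.3% and 41.5% of all genes). With equal weight to S and G2/M calls, 1 member was higher and 11 were lower, against 36.1% and 44.0% of all genes, with a median log2 difference of -0.29 over the members and -0.07 over all genes. H2afx was the member still higher, by 1.05 ± 0.06 (SE; limma adjusted p = 3.51e-07). H2afz was at -0.12 (limma adjusted p = 0.168) and H2afv at -0.06 (limma adjusted p = 0.433), where both had been higher over all cells.

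The lowest member under equal weight was again H1f0, at -1.56 ± 0.09 (limma adjusted p = 2.62e-07), with 0.438 and 0.422 UMIs per 10000 in pluripotent-like S calls against 1.00 and 1.16 in other S calls. Hist1h1e was at -1.29, H1fx at -0.94, Hist1h1c at -0.67 and Hist1h1b at -0.59, so that all 5 tested linker histone genes were lower. The family did not move as a whole. With the filter lowered to a mean of 0.02, Hist1h1a was higher by 0.37 (limma adjusted p = 0.00208). Hist1h1d was at 0.10 (limma adjusted p = 0.121) and was not called. Both averaged under 0.02 over all other cells. H2afy2 was at -1.04, with 0.110 and 0.201 UMIs per 10000 in pluripotent-like S calls against 0.449 and 0.354. Hist1h2bc was at -0.84 (-1.28 in replicate 1 and -0.40 in replicate 2) and H2afj at -0.39. Hist1h2ap, at -0.23, was at -0.08 in replicate 1 and -0.38 in replicate 2. Hist1h1b thus stood higher in pluripotent-like cells over all cells and lower at equal phase weight. In S calls it was at 0.533 and 0.248 UMIs per 10000 against 0.415 and 0.299 in other cells. The libraries thus differed in direction there. In G2/M calls it was at 0.310 and 0.169 against 0.776 and 0.595. Hist1h2ap and H2afz were higher within S calls, by 0.46 and 0.31, and stood lower within G2/M calls of both libraries.

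**Figure D4:**
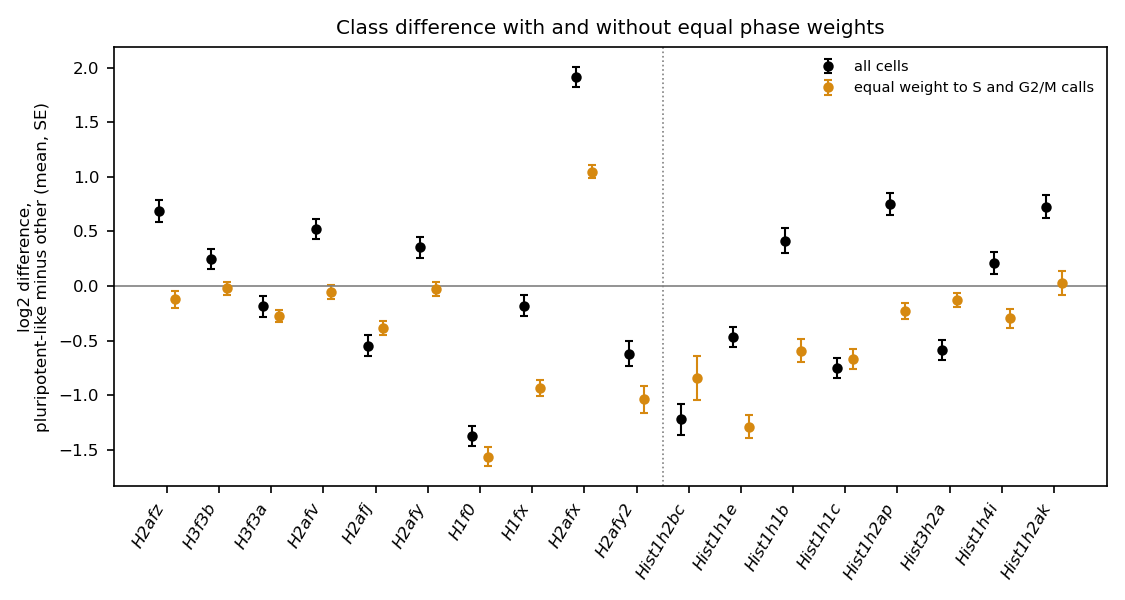
Log2 difference between pluripotent-like and other cells (y axis, mean with SE bars) for each of the 18 tested histone genes, over all cells (black) and with equal weight to S and G2/M calls (orange), with variant genes left of the dotted line and cluster genes right of it. H2afz, H2afv and Hist1h2ap are above 0 in black and at or below 0 in orange, H2afx is above 0 in both, and H1f0 is the lowest in both.

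The clusters of cells showed the same genes without any phase call. Over the 11 clusters with at least 30 cells in both libraries, the summed cell cycle lists lay between 10.6 and 18.9 UMIs per 10000 in 8 clusters, between 84.6 and 102 in a pair whose leading genes included Mki67 and Tk1, and at 80.7 and 77.2 in the pluripotent-like cluster. Hist1h2ap was at 0.00652 to 0.0387 in the 8 clusters, 0.526 to 0.698 in the pair and 0.373 and 0.319 in the pluripotent-like cluster, and Hist1h1e at 0.0485 to 0.101, 0.554 to 0.776, and 0.160 and 0.105. H2afx was at 0.131 to 0.302, 1.17 to 2.04, and 2.82 and 2.22, so that the pluripotent-like cluster was the highest. H1f0 was at 0.686 to 1.61, 1.69 to 1.85, and 0.391 and 0.479, and the pluripotent-like cluster was the lowest. Hist1h2bc spread widely among the 8 clusters, from 0.177 to 1.34, with 1.34 and 1.02 in the myofibroblast-like cluster, the highest in replicate 1, and 0.987 and 1.19 in an unnamed cluster, the highest in replicate 2.

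**Figure D5:**
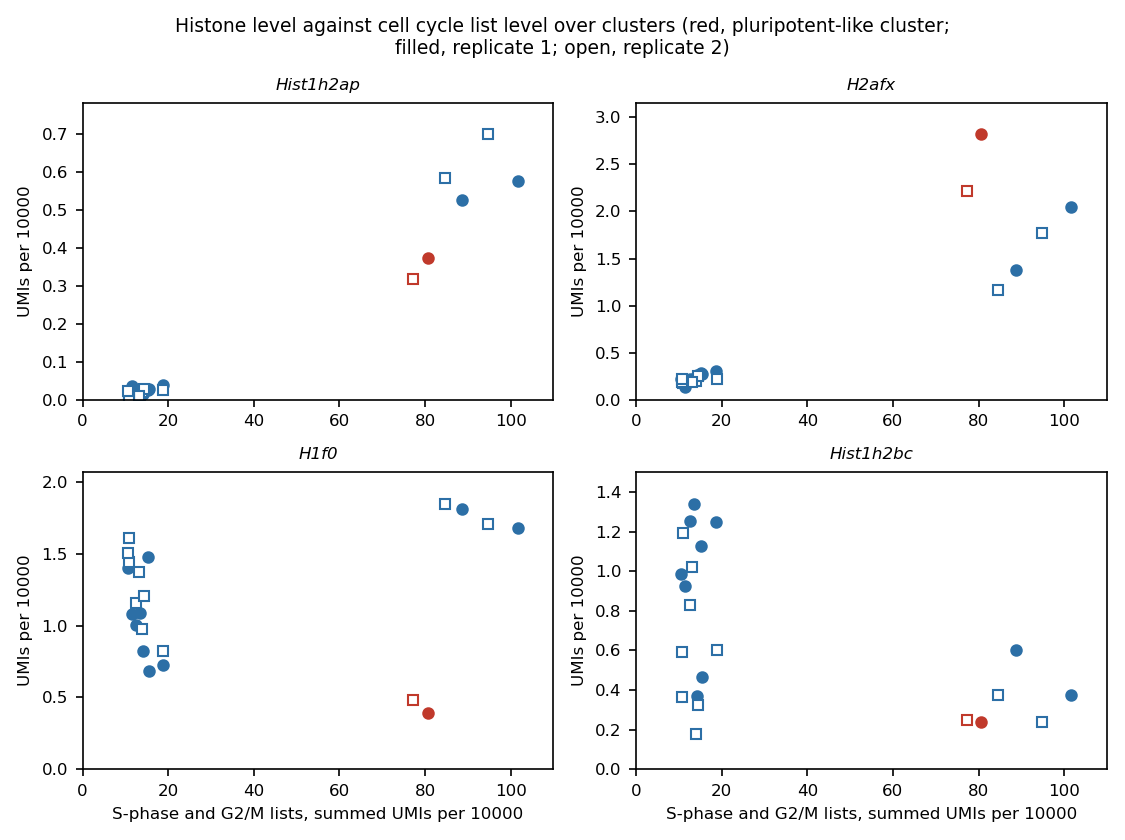
Level of 4 histone genes (y axes, UMIs per 10000 UMIs) against the summed level of the S-phase and G2/M lists (x axes, UMIs per 10000 UMIs) over 11 clusters, with the pluripotent-like cluster in red, replicate 1 filled and replicate 2 open. Hist1h2ap and H2afx are near 0 in the 8 clusters with a low list level, and H1f0 is lowest in the pluripotent-like cluster although its list level is high.

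The 57 cluster members below the filter were described without a test. In 43 of them the level was higher in pluripotent-like than in other cells of both libraries and in 1 it was lower in both, where 26.9% of the 10340 other genes below the filter were higher in both. Their summed level was 1.24 and 0.849 UMIs per 10000 in pluripotent-like cells and 0.393 and 0.292 in other cells. Among other cells it was 0.134 and 0.104 in cells called neither, 0.584 and 0.429 in S and 1.07 and 0.856 in G2/M, and among pluripotent-like cells 1.36 and 0.860 in S and 1.15 and 0.860 in G2/M. Of the 5 states, cells called neither had the lowest sum in both libraries. With the filter lowered to a mean of 0.02, 27 members were fitted and 16 were higher, against 32.2% of all genes, and in G2/M calls of other cells 29 were fitted and 22 were higher, against 17.2%. Some of them pass that filter only through the cells where they are high. Hist1h4d, an H4 gene, was at 0.153 and 0.0869 in pluripotent-like and 0.0489 and 0.0414 in other cells, and Hist1h2al at 0.125 and 0.0580 against 0.0466 and 0.0371.

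Genes that make, process and carry histones were read from 3 lists. Of 13 genes for histone mRNA synthesis and 3′ end processing, 6 of the 11 tested rose in pluripotent-like cells and 1 fell. Of 16 chaperones that bring histones to newly copied DNA, 12 of the 15 tested rose, and none fell by limma, with 1 at an unadjusted p under 0.05 in that direction. Of 13 chaperones of variant histones, 7 of the 12 tested rose and 1 fell. The rates over all genes are those given for the first comparison. Nasp, a carrier of free H3 and H4, was at 3.16 and 2.62 UMIs per 10000 in pluripotent-like cells and at 0.337 and 0.305 in other cells, a log2 difference of 2.83 ± 0.09 (SE; limma adjusted p = 7.64e-10). Hat1, which acetylates new H4, was at 1.80 and 2.08 against 0.384 and 0.392 (2.06), and Chaf1b, of chromatin assembly factor 1, at 0.649 and 0.647 against 0.149 and 0.143 (1.60). Atrx, which with Daxx deposits H3.3 in repeats, was at 2.36 and 2.14 against 1.07 and 1.01 (1.04). Srrt, which acts with the cap-binding complex, was at 1.08 and 0.922 against 0.404 and 0.314 (1.26), and Supt16, a subunit of FACT, at 1.02 and 1.14 against 0.383 and 0.418 (1.24).

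With equal weight to S and G2/M calls fewer supply genes were higher, where 36.1% of all genes were higher and 44.0% lower. Of the chaperones for newly copied DNA 7 of 15 were then higher and 4 lower (Asf1b, Chaf1a, Rbbp7 and Ssrp1, by -0.27, -0.26, -0.25 and -0.19), and their median log2 difference was 0.13, against 0.59 over all cells. Of the synthesis and processing genes 5 of 12 were higher and 3 lower (median -0.02, against 0.41), and of the variant chaperones 6 of 12 and 2 (median 0.18, against 0.42). Nasp still differed by 2.01, Hat1 by 1.36, Chaf1b by 0.81 and Atrx by 0.94 on the log2 scale, where H2afx was the only 1 of the 18 histone genes called higher. Slbp, whose protein binds the histone stem-loop, was at 0.996 and 1.05 against 0.634 and 0.617 over all cells (0.63, limma adjusted p = 7.61e-05), and at -0.10 with equal weight (limma adjusted p = 0.171). Npat, the activator of cluster histone transcription, was at 0.0667 and 0.133 against 0.104 and 0.0923, below the filter of the first comparison. Cenpa, the H3 variant of centromeres that lies outside the symbol rule, was at 1.77 and 1.90 against 0.959 and 0.899 (0.91), and its step from S to G2/M was 2.87 in other cells and 1.07 in pluripotent-like cells.

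Several cluster members differed more between the libraries than most genes did. Of the 18 tested members 13 were higher in replicate 1, where 68.7% of all genes with a mean of 0.1 were, and log2 ratios of replicate 2 to replicate 1, with 0.1 added to each level, ran from -0.69 to 0.10 (median -0.13). The middle 90% of all genes ran from -0.32 to 0.18. Below that range lay 4 of the 18 members, all of them among the 8 cluster members tested, namely Hist1h2bc (-0.69, from 0.874 and 0.505 UMIs per 10000), Hist1h4i (-0.37), Hist1h1b (-0.36) and Hist3h2a (-0.35). The other 14 lay within it.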

How the data were processed

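Droplet single-cell 3′ RNA-seq (10x Genomics, V2 chemistry) of 2 libraries was used. The labels put both in 1 group, and their replicate numbers follow record order. The authors aligned reads with Cell Ranger (version 2.1.1, mm10), filtered cells in Seurat (over 1500 and under 6000 genes, under 9% mitochondrial RNA), and deposited natural log values, ln(1 + UMIs per 10000). Taken back to a linear scale, 100% of values above 0 lay within 0.01 of a whole multiple of the cell's smallest value, so UMIs were recovered. Depth was 54145377 and 64654306 UMIs, which limits rare members to a few UMIs. All 7023 cells were used. The authors' treatment of doublets was not given in the sources used here, no doublet caller was run, and cells over 40000 UMIs were left out in an alternative. The members and lists were chosen with earlier results of these data known.

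Cells of both libraries were clustered together (scanpy 1.11.5, leidenalg 0.10.2, resolution 1, 2591 variable genes, 30 components, 15 neighbours) without 724 genes, namely the histone genes, the histone supply lists, X-linked and Y-linked genes and the held-out pluripotency genes and reprogramming factors. A cluster was named where at least 3 and at least 50% of the markers of a class were raised by a log2 fold of 1. Phase was called in each library from scores of 39 S-phase and 51 G2/M genes on cells thinned to 4500 UMIs, as S or G2/M by the higher score where it was above 0 and otherwise as neither. A state needed 20 cells in both libraries, so pluripotent-like cells called neither were left out, and G2/M was set against S in place of the comparisons that needed them. This replacement was chosen after seeing the data.

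Levels are means of UMIs per 10000 over the cells of a state, taken per library. limma (version 3.58.1, R 4.3.3) was fitted to log2(level + 0.1) with a library term, on 4 profiles for the classes (10.7 degrees of freedom with the spread shared among genes) and on 10 profiles for the 5 class and phase states (8.81), over genes with a mean of at least 0.1, with Benjamini-Hochberg adjustment over all genes tested and a threshold of 0.05. A log2 difference on this scale understates the change of genes near the pseudocount of 0.1. The fits were tested on simulated data. The library term pairs states measured in the same library. Exact binomial intervals are Clopper-Pearson at 95%. Genes named were the variant members tested, the 10 most abundant cluster members, the members with the largest differences by class and by phase, the 6 supply genes with the largest difference, and Slbp, Npat and Cenpa. Stem-loops, poly(A) signals and shared windows came from GENCODE transcripts of GRCm38, and promoters from RefSeq. Alternatives were other pseudocounts, filters, scalings, resolutions and phase calls, no library term, and each library alone.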

Additional observations from a re-analysis of the deposited data

Results flagged for a closer look

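The step from S to G2/M calls differed between pluripotent-like and other cells in 8 histone genes by a test of that difference (limma interaction term over 10 profiles from 2 libraries, pluripotent-like minus other cells on the log2 scale). The differences were -1.38 for Hist1h2ap, -1.28 for Hist1h1b, -1.17 for Hist1h1e, -1.04 for H1fx, -0.999 for H2afv, -0.86 for H2afz, -0.82 for H1f0 and -0.80 for H3f3b. The limma adjusted p ranged from 0.00281 for Hist1h2ap to 0.0497 for H1f0. Each library alone gave a negative difference for all 8, and that of H1f0 was -1.19 in replicate 1 and -0.44 in replicate 2. The calls of H2afv, H3f3b and Hist1h2ap held under the 8 other settings that gave this test, and that of H1f0 was lost under 7 of them.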

How the results depend on the processing

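Of 1226 values of single genes under other settings, 1168 kept their direction and side of the threshold, 40 lost the call, 15 gained it and 3 reversed. The 3 that reversed did so with UMIs per cell and no scaling to depth, to 0.59 for H3f3a, 0.38 for H1fx and 0.21 for H2afj, where the median of all genes was 0.55. The same setting gave 17 of 24 members higher and 3 lower between the classes and 41 of 42 supply genes higher by limma and 0 lower (0 at an unadjusted p under 0.05), where 61.9% of all genes were higher, and log2 ratios of summed levels of 0.91 for cluster and 1.06 for variant members (0.22 and 0.36 as reported). Dividing summed UMIs by their total gave 0.12 and 0.27, and cells of at most 40000 UMIs gave 0.25 for cluster members. Each library alone gave 0.19 to 0.24 for cluster and 0.31 to 0.42 for variant members.

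Filters set how many rare cluster members were tested. With a mean of 0.02 and with no filter, 16 of 27 and 16 of 76 members were higher between the classes (32.2% and 20.1% of all genes), 22 of 29 and 24 of 76 in G2/M calls of other cells (17.2% and 10.8%) and 5 of 29 and 10 of 76 with equal phase weight (32.1% and 24.3%). Phase calls on all UMIs and without cells near the limit gave 2 and 3 members lower in S calls. The 8 lower steps from S to G2/M became 5 with a pseudocount of 0.01, 3 with no filter, 4 with phase calls on all UMIs and 3 without cells near the limit, while a pseudocount of 1 gave 1 higher step (H2afj). With no filter 0 members were lower by limma in G2/M than in S calls of pluripotent-like cells (6 at an unadjusted p under 0.05), where Hist1h2ap lost its call. For the S calls and the steps, the shares of all genes under these settings are not given here. Lost calls of members thus cannot be told apart from fewer calls over all genes. The cause of these changes was not tested.

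Without the replicate block 1 member was lower in G2/M calls and 5 steps were lower in pluripotent-like cells, with the shares of all genes not given here. The pairing is that states come from the same library. Over all 9 comparisons, leaving out a library moved 10 called differences of members by over 1.5 times, and 7 of supply genes. From replicate 1 and replicate 2 alone those of members were -0.85 and -0.39 for H2afy2 and 0.63 and 0.21 for Hist1h1b between the classes, -0.08 and -0.38 for Hist1h2ap and -1.28 and -0.40 for Hist1h2bc with equal phase weight, and -1.19 and -0.44 for the step of H1f0. Between the classes within S calls they were -1.39 and -0.59 for H2afy2, 0.42 and 0.19 for H2afz and 0.62 and 0.30 for Hist1h2ap, and within G2/M calls -0.11 and -0.78 for Hist1h2ak and -1.69 and -0.63 for Hist1h2bc. Those of supply genes were, within G2/M calls, -0.88 and -0.43 for Asf1b, -0.66 and -0.32 for Chaf1a, -0.80 and -0.34 for Rbbp7 and -0.38 and -0.16 for Slbp, within S calls -0.35 and -0.14 for Eri1, and with equal phase weight 0.13 and 0.31 for Ncbp1 and -0.38 and -0.12 for Rbbp7. Comparisons with pluripotent-like cells called neither could not be fitted. Most cluster members had too few UMIs for a test.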
